A study of Mus musculus with 6 samples.

Results

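Glutathione synthesis and the core targets of NRF2 were followed as 10 genes in mouse liver: Gclc, Gclm, Gss, Gsr, Slc7a11, Txnrd1, Srxn1, Nqo1, Hmox1 and Nfe2l2. They were chosen by gene symbol, without the glutathione transferase genes and with earlier results of these data known. All 10 were found among the 22899 rows of the expression table. The livers came from mice of the outbred ICR stock. The treated mice received an ethyl acetate fraction prepared from the water-soluble extract of Chebulae Fructus, the fruit of Terminalia chebula, through a stomach tube, 1 g/kg each day over 1 week (3 libraries). The controls received water by the same route, at 10 ml/kg, also over 1 week (3 libraries). Libraries are named by group and replicate, as water 1 to 3 or extract 1 to 3. Sex and age are not in the labels. Nor do the labels say that libraries came from different animals, so a p-value here reflects spread among libraries that may in part be technical.

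Glutathione is a tripeptide of glutamate, cysteine and glycine that liver cells make in large amounts to reduce peroxides and to conjugate foreign compounds. Its synthesis starts with glutamate-cysteine ligase, an enzyme of a catalytic subunit (Gclc) and a modifier subunit (Gclm), and ends with glutathione synthetase (Gss). The transcription factor NRF2, encoded by Nfe2l2, is held at low protein levels by KEAP1. When electrophiles or oxidants modify KEAP1, NRF2 accumulates and enters the nucleus. Paired with a small MAF protein, NRF2 binds antioxidant response elements beside genes of thiol metabolism, quinone reduction and haem breakdown. NRF2 is regulated largely at the level of its protein, which RNA values do not measure.

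The core of that element, TGACNNNGC or TGAGNNNGC, was searched for on both strands in RefSeq promoter windows on GRCm38.p6, which run from 250 bases before to 50 bases after a transcript start. 7 of the 10 genes had a window (Gclm, Gss, Slc7a11, Txnrd1, Srxn1, Nqo1 and Nfe2l2). 5 of the 7 held at least 1 match in any of their windows, while 35.5% of the genes tested below and 30.8% of all genes with a window did. Srxn1 held 3 matches, of which 2 lie before the start, and Gclm, Slc7a11, Txnrd1 and Nfe2l2 held 1 each. The matches of Slc7a11 and Txnrd1 lie in windows of transcript starts inside the annotated gene. The Txnrd1 window at the start of the gene held none. The windows of Gss and Nqo1 held none, which says only that these letters are not in these windows. The bases before the annotated gene are shown for 3 genes, 5′ to 3′ in the gene's direction with matches in capitals: Gclm, at chr3:122245307-122245486 on the plus strand, as the gene with a window whose level differed most, Srxn1, at chr2:152105274-152105523 on the plus strand, for its matches, and Nqo1, at chr8:107403206-107403455 on the minus strand, as the quinone reductase widely used as a readout of NRF2.
Gclm: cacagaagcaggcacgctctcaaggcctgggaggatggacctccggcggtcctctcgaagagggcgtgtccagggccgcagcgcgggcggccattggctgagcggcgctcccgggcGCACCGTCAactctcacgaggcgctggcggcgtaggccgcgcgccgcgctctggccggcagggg
Srxn1: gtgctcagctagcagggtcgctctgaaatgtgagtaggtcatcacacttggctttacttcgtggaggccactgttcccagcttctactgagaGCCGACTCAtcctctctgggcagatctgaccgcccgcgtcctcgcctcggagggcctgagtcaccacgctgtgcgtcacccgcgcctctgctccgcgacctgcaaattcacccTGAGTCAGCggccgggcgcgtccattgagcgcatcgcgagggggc
Nqo1: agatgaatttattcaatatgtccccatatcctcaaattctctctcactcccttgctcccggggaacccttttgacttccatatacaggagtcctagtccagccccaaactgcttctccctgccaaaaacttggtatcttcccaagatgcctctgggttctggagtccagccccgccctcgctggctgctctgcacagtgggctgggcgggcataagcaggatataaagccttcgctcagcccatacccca
The Gclm match spans bases 117 to 125 of the window and, read on the opposite strand, lies 134 to 126 bases before the transcript start. A match of letters is not evidence of binding, and no binding was measured here.

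Levels are given in FPKM, sequenced fragments per kilobase of a transcript after scaling for library size, a unit inferred from the values because the table names none. FPKM can be compared between genes, but read depth is unknown, so no counting error can be given. Values were given for 17738 genes. The 10282 of them with 1 FPKM or more in 3 or more libraries were tested with limma on log2(FPKM + 1), with Benjamini-Hochberg adjustment over all of them. 9 of the 10 genes were tested, and Slc7a11 was below the filter. Extract 3 lay nearest to water on the first principal component of all genes tested, at 2.06 against 14.2 and 26.8 for the other extract libraries. Water 1, at -3.81, lay nearest to extract, and it stood apart on the second component, at 29.6 against -11.9 to -2.74 for the other libraries.

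In the extract livers all 4 enzymes of glutathione synthesis and recycling, Gclc, Gclm, Gss and Gsr, were higher in every library than in any water library. The same held for 10% of all genes tested. With all libraries centred to 1 median, it held for only Gclc and Gclm of the 4. These 4 were not planned as a group before the values were seen, so their comparison with all genes is descriptive only. The ligase subunits differed most, at 1.46 times the water mean for Gclc and 1.44 times for Gclm, while Gss was at 1.24 times and Gsr at 1.23 times. None of these differences passed limma's test over all genes tested. The thiol and quinone reductases Txnrd1, Srxn1 and Nqo1, the haem oxygenase Hmox1 and Nfe2l2 itself overlapped between the groups. Markers of Kupffer cells had higher levels in these extract livers too, with 11 of 12 log2 fold changes positive, as were 57.5% of all genes tested. The marker sums were 137 to 164 FPKM in water and 219 to 333 FPKM in extract libraries. The part of these markers in the values of the 4 enzymes was not tested.

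Over all 9 tested genes, 0 passed limma's adjusted threshold, where 0.0486% of all genes tested did. At limma's unadjusted p below 0.05 there were 2, Gclc and Gclm, both higher, where 6.5% of all genes tested were higher at that level. The 4 genes whose extract libraries all lay above all water libraries compare with 10% of all genes tested, and none of the 9 lay below, as 5.88% of all genes did. The median log2 fold change was 0.22 over the 9 genes and 0.03 over all genes tested, and 7 of the 9 were positive, as were 57.5% of all genes. The counts by gene depended on scaling, since with all libraries centred to 1 median only Gclc and Gclm remained free of overlap, with 7.13% of all genes then higher without overlap. Because the genes were chosen with earlier results of these data known, the comparisons with all genes are descriptive only.

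**Figure D1:**
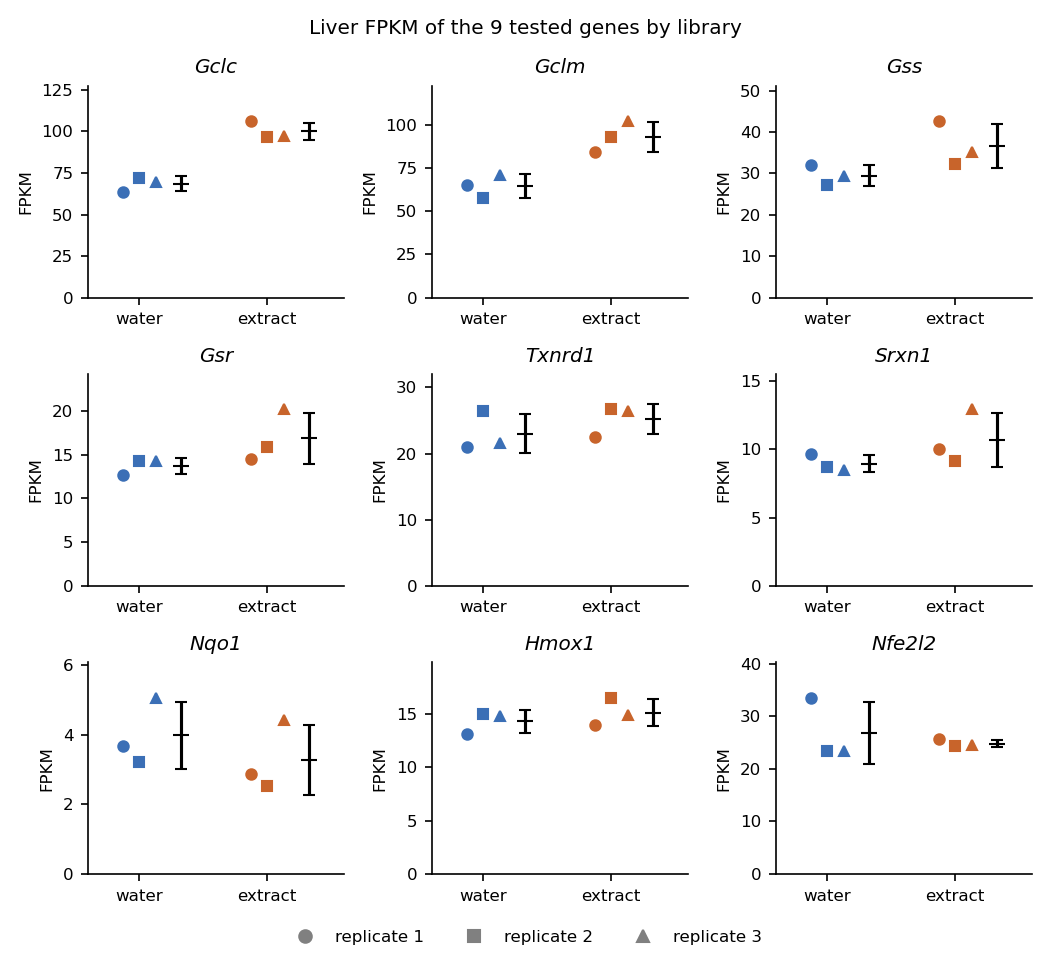
FPKM of the 9 tested genes in each library, with 1 panel per gene and axes starting at 0. Blue symbols are water and orange symbols extract libraries. The shape gives the replicate number, which the labels do not state to be a pairing, and the black bars are mean and SD (n = 3). Gclc and Gclm are separated between groups by the widest margins, Gss and Gsr narrowly, and the other 5 genes overlap.

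Gclc (gene ID 14629, chromosome 9 from 77754535 to 77794489 on GRCm38.p6) encodes the subunit that joins glutamate to cysteine, the rate-limiting step. Its level was 63.82, 72.22 and 69.72 FPKM in water 1 to 3 and 106.11, 96.76 and 97.04 FPKM in extract 1 to 3. The lowest extract library lay well above the highest water library, and extract 3 lay close to extract 2. The means were 68.6 ± 4.31 and 100.0 ± 5.32 FPKM (SD, n = 3), or 0.54 ± 0.11 as a log2 fold change and its standard error (limma adjusted p = 0.171). Gclc ranked 87th by p among the genes tested. By its mean level it ranked 790th of the genes with values, the most abundant of the 10.

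Gclm (14630, chromosome 3 from 122245487 to 122267215) encodes the partner subunit that raises the ligase's affinity for glutamate and eases its feedback inhibition by glutathione. Its level was 65.51, 57.54 and 71.27 FPKM in water 1 to 3 and 84.55, 92.85 and 102.2 FPKM in extract 1 to 3. The groups did not overlap, and extract 3, the extract library nearest to water over all genes, was the highest. The means were 64.8 ± 6.89 and 93.2 ± 8.83 FPKM, or 0.52 ± 0.13 as a log2 fold change and its standard error (limma adjusted p = 0.226). An annotated processed pseudogene, Gm6061, and the transcript Gm17494 overlap exons of Gclm and were not analysed here.

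The proportion of the ligase subunits was compared as well, since they act as 1 enzyme. The ratio of Gclc to Gclm FPKM was 0.974, 1.26 and 0.978 in water 1 to 3 and 1.25, 1.04 and 0.95 in extract 1 to 3. The ratios overlapped fully, with means of 1.07 ± 0.161 and 1.08 ± 0.157 (two-sided exact permutation p = 1, where 3 against 3 libraries allow no p below 0.1).

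Gss (14854, chromosome 2 from 155563181 to 155592810) encodes the synthetase that adds glycine to complete glutathione. Its level was 32.01, 27.16 and 29.26 FPKM in water 1 to 3 and 42.58, 32.15 and 35.07 FPKM in extract 1 to 3. Extract 2 lay only just above water 1, and the groups overlapped after median centring. The means were 29.5 ± 2.43 and 36.6 ± 5.38 FPKM, or 0.30 ± 0.14 as a log2 fold change and its standard error (limma adjusted p = 0.52), which was 0.18 without extract 1. Exons of Gss overlap those of the antisense genes Gssos1 and Gssos2, which were not analysed here. They also overlap those of Acss2, an acetyl-CoA synthetase gene on the opposite strand, and the labels do not state whether strand was used. Acss2 was lower in the extract livers, at 36.5 ± 2.94 against 69.4 ± 16.8 FPKM, with no overlap (limma adjusted p = 0.17), and its part in the Gss values was not tested.

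Gsr (14782, chromosome 8 from 33653238 to 33698162) encodes glutathione reductase, which returns oxidised glutathione to its reduced form with NADPH. Its level was 12.63, 14.28 and 14.27 FPKM in water 1 to 3 and 14.55, 15.9 and 20.17 FPKM in extract 1 to 3. Extract 1 lay just above the water libraries and extract 3 was the highest, and the groups overlapped after median centring or quantile normalization. The means were 13.7 ± 0.95 and 16.9 ± 2.93 FPKM, or 0.27 ± 0.14 as a log2 fold change and its standard error (limma adjusted p = 0.576), which was 0.14 without extract 3.

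Slc7a11 (26570, chromosome 3 from 50364936 to 50499087) encodes the transport subunit of the cystine-glutamate exchanger, which supplies cysteine to many cell types in culture. It was listed at 0.01 FPKM in water 3 and in extract 1 and at 0 in the other 4 libraries. No fold change is given, and at unknown depth a listed 0 does not show that the transcript was absent.

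Among the reductases, Txnrd1 (50493, chromosome 10 from 82833951 to 82897724) encodes the cytosolic thioredoxin reductase. Its level was 20.97, 26.39 and 21.62 FPKM in water 1 to 3 and 22.54, 26.67 and 26.37 FPKM in extract 1 to 3. Water 2 lay with extract 2 and 3, so the groups overlapped (log2 fold change 0.13, 95% interval -0.18 to 0.43, limma adjusted p = 0.83).

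Srxn1 (76650, chromosome 2 from 152105524 to 152111376) encodes sulfiredoxin, which repairs over-oxidised peroxiredoxins. Its level was 9.65, 8.71 and 8.49 FPKM in water 1 to 3 and 10.04, 9.13 and 12.93 FPKM in extract 1 to 3. Extract 2 lay below water 1, and extract 3 was the highest. The log2 fold change was 0.22, with a 95% interval of -0.11 to 0.55 (limma adjusted p = 0.665), and it was 0.09 without extract 3.

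Nqo1 (18104, chromosome 8 from 107388225 to 107403205), a reductase of quinones, had the lowest level of the tested genes. It was at 3.67, 3.2 and 5.06 FPKM in water 1 to 3 and 2.87, 2.53 and 4.43 FPKM in extract 1 to 3. Extract 1 and 2 lay below all water libraries and extract 3 within them. The log2 fold change was -0.23, with a 95% interval of -0.70 to 0.24 (limma adjusted p = 0.798), and it was -0.41 without extract 3 and -0.08 without water 3. The upper end of the interval lies below the estimate for Gclc on the same scale, but the difference between the genes was not tested.

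Hmox1 (15368, chromosome 8 from 75093618 to 75100593) encodes the inducible haem oxygenase, which opens the haem ring to biliverdin, iron and carbon monoxide. Its level was 13.06, 15 and 14.76 FPKM in water 1 to 3 and 13.93, 16.49 and 14.88 FPKM in extract 1 to 3. The ranges overlapped, with a log2 fold change of 0.08 and a 95% interval of -0.19 to 0.34 (limma adjusted p = 0.908). Kupffer cells, the macrophages of the liver that clear old red cells, also express Hmox1. Of 12 Kupffer cell markers, 11 had a positive log2 fold change, as did 57.5% of all genes tested. 7 did not overlap between groups, all higher in the extract livers, as were 10% of all genes tested. None of the 12 was at 0 in all libraries. The two-sided exact permutation p of the markers' summed level was 0.1, the smallest that 3 against 3 libraries allow. The part of that level in the Hmox1 values was not tested. In whole liver, more cells of a type and more RNA per cell cannot be told apart.

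Nfe2l2 (18024, chromosome 2 from 75675513 to 75704663) was at 33.53, 23.34 and 23.45 FPKM in water 1 to 3 and 25.61, 24.34 and 24.48 FPKM in extract 1 to 3. Water 1 was the highest of the 6 libraries, and the extract libraries lay within the water range. The log2 fold change was -0.09, with a 95% interval of -0.45 to 0.27 (limma adjusted p = 0.927). Without water 1 it was 0.08 (limma adjusted p = 0.702). The extract libraries then all lay narrowly above the remaining water libraries, at 24.34 FPKM or more against 23.45 or less. In that setting 20.4% of all genes tested were higher without overlap.

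**Figure D2:**
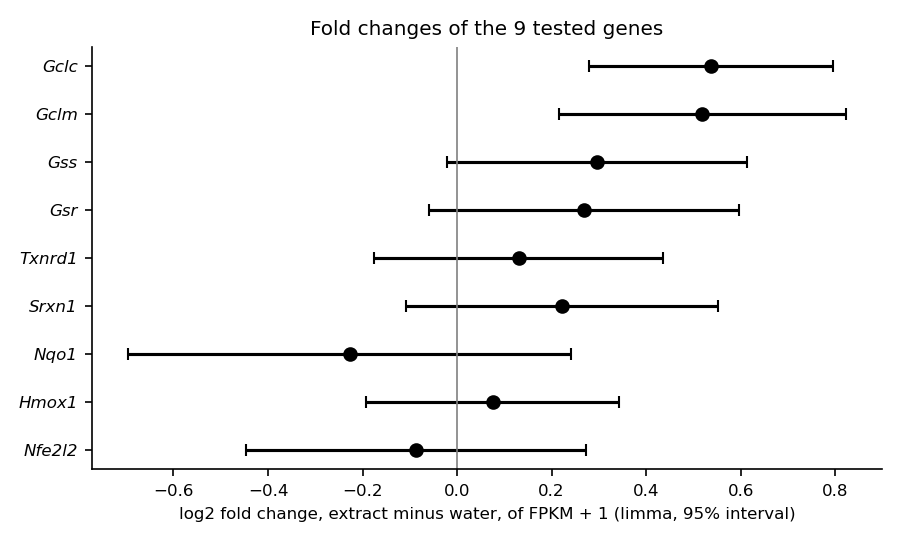
Log2 fold change of FPKM + 1, extract minus water, for the 9 tested genes. Points are limma estimates from 3 libraries a group and bars their 95% intervals, unadjusted for the number of genes. The intervals of Gclc and Gclm lie above 0, from 0.28 and 0.21, and the other 7 include 0.

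By mean level over all libraries, the order was Gclc, Gclm, Gss, Nfe2l2, Txnrd1, Gsr, Hmox1, Srxn1, Nqo1 and Slc7a11. Neighbours in this order whose ranges over the libraries overlapped were Gclc and Gclm, Gss and Nfe2l2, Nfe2l2 and Txnrd1, and Gsr and Hmox1.

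The fold changes of Gclc and Gclm moved little with the choice of libraries. With any 1 library left out, the log2 fold change of Gclc lay between 0.49 and 0.57 and that of Gclm between 0.44 and 0.59, with limma adjusted p of at least 0.137 and 0.183. Without water 1 and extract 3 together, a choice made after seeing the data, Gclc, Gclm, Gss and Gsr were still higher without overlap, with Srxn1 and Nfe2l2 in addition, where 27.1% of all genes then were. Nqo1 was then lower without overlap, as were 23.2% of all genes.

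**Figure D3:**
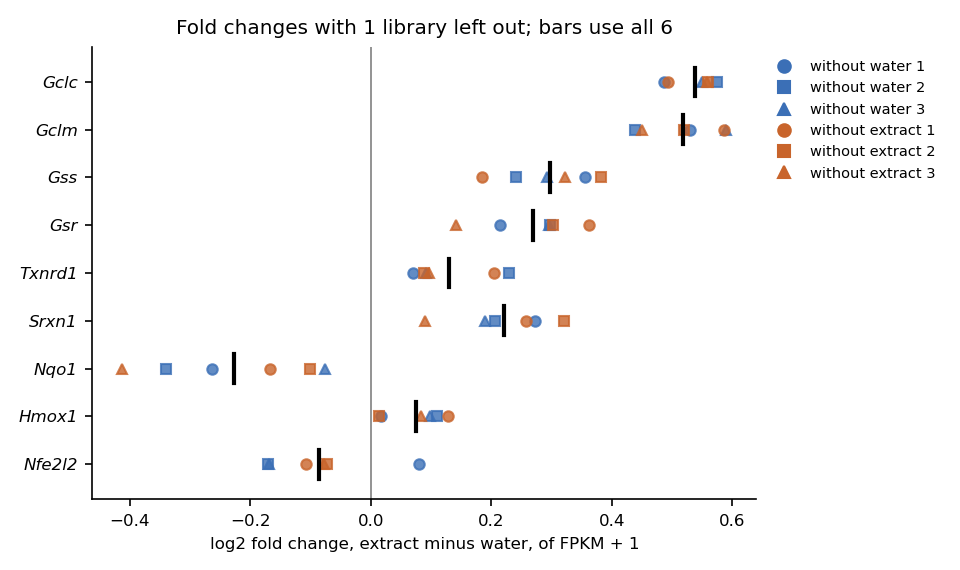
Log2 fold change of FPKM + 1, extract minus water, for each gene with 1 library left out (symbols, coloured by the group of the library left out) and with all 6 libraries (black bars). Gclc stays between 0.49 and 0.57 and Gclm between 0.44 and 0.59, while Nfe2l2 turns from -0.09 to 0.08 without water 1.

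80 further genes of the pathway in 6 lists were read from the same fit. 73 were tested and 0 passed limma's adjusted threshold, where 0.0486% of all genes tested did. At limma's unadjusted p below 0.05, 2 were higher and 3 lower, where 6.5% and 3.82% of all genes tested were, and 5 were higher and 5 lower without overlap, where 10% and 5.88% of all genes tested were. Their median log2 fold change was -0.02.

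Of the 11 regulators and partners of NRF2, all tested, 6 had a positive log2 fold change and the median was 0.03. Nfe2l1, a relative of NRF2, had 26.69, 29.55 and 37.83 FPKM in water and 25.6, 27.81 and 22.88 in extract libraries, which overlapped (limma adjusted p = 0.592). Mafg and Mafk, small MAF partners, had log2 fold changes of 0.18 and -0.15. Sqstm1, an autophagy receptor that binds KEAP1 and the most abundant of the list, was narrowly higher without overlap, at 107 to 120 FPKM in water and 121 to 124 FPKM in extract libraries (log2 fold change 0.11, limma adjusted p = 0.823). Keap1, named after its values were seen, had 14.28 to 15.63 FPKM in water and 15.12 to 16.17 FPKM in extract libraries (log2 fold change 0.07).

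Of 20 other NRF2 targets 17 were tested, 12 with a positive log2 fold change, and the median was 0.09. Aox1, an aldehyde oxidase, was higher without overlap, at 9.5, 10.87 and 9.25 FPKM in water and 11.88, 17.45 and 13.62 FPKM in extract libraries (log2 fold change 0.48, limma adjusted p = 0.323). Ephx1, the microsomal epoxide hydrolase, had 194 to 290 FPKM in water and 263 to 344 FPKM in extract libraries, which overlapped. Osgin1, an oxidative stress-induced growth inhibitor, had 46.4, 54.18 and 56.34 FPKM in water and 149.85, 51.62 and 70.11 FPKM in extract libraries, so extract 1 alone was far above the rest (limma adjusted p = 0.591). Ftl1, the ferritin light chain and the most abundant of the list, had 3588 to 5552 FPKM in water and 3397 to 3821 FPKM in extract libraries (log2 fold change -0.31).

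Of 20 genes of glutathione precursors and turnover 17 were tested, and their median log2 fold change was -0.01. Ggact, which acts on gamma-glutamylamines, was higher without overlap, at 35.3 to 43.92 FPKM in water and 46.51 to 54.06 FPKM in extract libraries (limma adjusted p = 0.463). Oplah, the oxoprolinase that returns glutamate from glutathione breakdown, was lower without overlap, at 30.84 to 36.82 FPKM in water and 25.48 to 30.47 FPKM in extract libraries (limma adjusted p = 0.491). Chac1, a glutathione-degrading enzyme that is also part of the amino acid stress response, had 1.16, 2.84 and 6 FPKM in water and 9.73, 5.77 and 4.55 FPKM in extract libraries, which overlapped. Cdo1, which oxidises cysteine and was the most abundant of the list, had 1139 to 1506 FPKM in water and 1159 to 1520 FPKM in extract libraries. Slc3a2, the heavy chain that pairs with the Slc7a11 protein and was named after its values were seen, had 21.23 to 32.61 FPKM in water and 23.89 to 25.63 FPKM in extract libraries.

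Of 18 genes that use glutathione or thioredoxin 17 were tested, 4 with a positive log2 fold change, and the median was -0.09. Glo1, the glyoxalase that needs glutathione to clear methylglyoxal, had 382.72, 331.82 and 165.71 FPKM in water and 170.23, 184.13 and 155.82 FPKM in extract libraries. Water 3 lay with the extract libraries, so the groups overlapped (limma adjusted p = 0.474). Txnrd3, another thioredoxin reductase, had a log2 fold change of 0.29 and overlapped, and Glrx5, a mitochondrial glutaredoxin of iron-sulfur cluster assembly, was lower without overlap, at 68.13 to 94.22 FPKM in water and 60.9 to 64.98 FPKM in extract libraries (limma adjusted p = 0.542). Gpx1, the main cytosolic glutathione peroxidase and the most abundant of the list, overlapped, with a log2 fold change of 0.03.

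Of 7 genes that supply NADPH, the electron source of Gsr and Txnrd1, 2 had a positive log2 fold change, and the median was -0.15. G6pdx, the first enzyme of the pentose phosphate pathway, was lower without overlap, at 5.63, 8.43 and 3.9 FPKM in water and 2.89, 3.88 and 1.86 FPKM in extract libraries (log2 fold change -0.83, limma adjusted p = 0.338). Extract 2 lay just below water 3. Me1, the malic enzyme, and Tkt, transketolase, had log2 fold changes of -0.35 and -0.145, and Idh1, the most abundant of the list, -0.12, and all 3 overlapped.

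Of 4 haem breakdown partners, all tested, Por, the reductase that passes electrons to haem oxygenase and to cytochromes P450, had 399.71, 522.9 and 437.85 FPKM in water and 273.58, 280.4 and 329.27 FPKM in extract libraries. It was lower in the extract livers without overlap (log2 fold change -0.62, standard error 0.15, limma adjusted p = 0.212). Hmox2, the constitutive haem oxygenase, and Blvra, a biliverdin reductase, had log2 fold changes of 0.16 and 0.13 and overlapped.

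**Figure D4:**
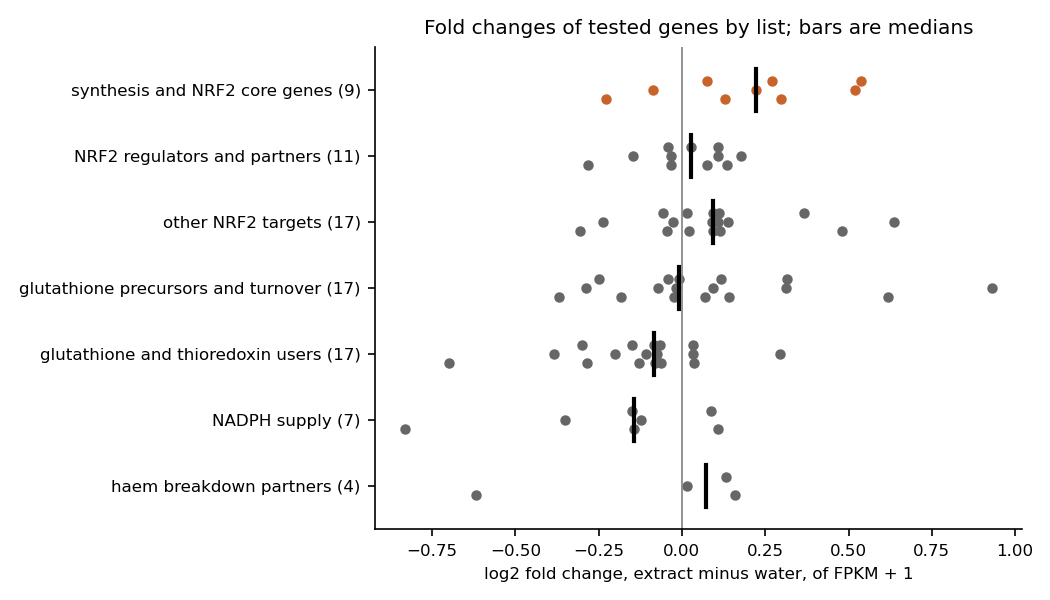
Log2 fold change of FPKM + 1, extract minus water, of each tested gene by list, with the number tested in brackets. Points are genes, spread vertically for legibility, and black bars are medians, which run from -0.15 for NADPH supply to 0.22 for the 9 tested synthesis and NRF2 core genes.

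The genes whose profile over the 6 libraries was most like that of Gclc, by the root mean square difference of log2(FPKM + 1) centred on each gene's mean, were Lasp1 (0.0464), Tlr2 (0.0619), Actn1 (0.0704), Aars (0.0736) and Ptprk (0.0751). Aars, an alanyl-tRNA synthetase gene, had 34.55, 35.55 and 36.44 FPKM in water and 57.98, 56.5 and 54.24 FPKM in extract libraries. Tlr2 was at or below 1.37 FPKM in all libraries and reached 1 FPKM in the extract libraries alone. Of the other 8 genes, Gclm was the nearest to Gclc at 0.167, 283rd among the genes tested, followed by Gss at 0.185, 493rd.

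The tissue label was checked against marker genes. Albumin made up 8.04% to 13.6% of the FPKM sum of a library, and all 8 hepatocyte markers were tested, with a sum of 83700 to 87900 FPKM in water and 67600 to 80700 FPKM in extract libraries. Albumin made up most of that sum and was the 1 marker of the 8 that was lower without overlap, while 4 of the 8 had a positive log2 fold change and the median was -0.03. Without albumin, a choice made after seeing the data, the sums were 16700 to 25600 FPKM in water and 19900 to 22400 FPKM in extract libraries. The other lists had fewer transcripts, with sums of 109 to 153 FPKM for sinusoidal endothelium, 77.3 to 125 for stellate cells and fibroblasts, 12.3 to 31.9 for bile duct and 2.27 to 4.6 for neutrophils and lymphocytes, and the sums of these 4 lists overlapped between the groups. Of the 8 endothelial markers 0 had a positive log2 fold change, as 57.5% of all genes tested did, and the median was -0.22. Among these 8, Fcgr2b alone was lower without overlap. Spp1 of the bile duct list and Ptprc of the neutrophil and lymphocyte list were higher without overlap, as were 10% of all genes tested (limma adjusted p = 0.382 and 0.534). Red blood cell genes summed to 791 to 2770 FPKM in water and 529 to 810 FPKM in extract libraries, and these sums overlapped too. Of the 5, only Alas2 had a positive log2 fold change. Hba-a1 was lower without overlap, with means of 1313 FPKM in water and 516 FPKM in extract libraries. Hbb-bs and Hbb-bt were both at 0 FPKM in water 3, the water library with the lowest sum, and Hbb-bs was at 134.66 FPKM in extract 1. The sums therefore depend in part on which globin genes are in the list. The globin genes Hbb-b1 and Hbb-b2, outside the list and named after their values were seen, were lower without overlap, as were 5.88% of all genes tested. The part of these lists in the values of the 10 genes was not tested.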

How the data were processed

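Poly(A)-selected mouse liver RNA was sequenced in 6 libraries, 3 per group, grouped by the treatment label. Per the submitters' processing notes, the tools were RSEM 1.2.12, DESeq2 1.4.5, HISAT2 2.0.4 and Bowtie2 2.2.5, with no role stated, and the build was GRCm38. FPKM is the unit inferred for the values deposited by the authors: their sums differed between libraries (517984 to 583245), which TPM values would not do. Multiplied by the longest transcript of every gene, they gave 118.1% to 120.8% of a library's fragments. FPKM divides out library size, so abundant transcripts can shift all others, and read depth is unknown. Of 22899 rows, 5161 were blank and 17738 held values. The authors' 2 group mean columns were not used.

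Genes at 1 FPKM or more in 3 or more libraries were tested with limma 3.58.1 in R 4.3.3, on log2(FPKM + 1) with a trended prior variance, two-sided, with an adjusted threshold of 0.05. No batch or pairing term was used. Fold changes on this scale understate those of low genes. The script was tested only on simulated, normally distributed data without outlying libraries. Changes there were absent or larger than that of any gene followed here, so smaller changes were not covered. The ratio and marker sums used a two-sided exact permutation test over 20 assignments. Motifs were read from RefSeq windows of GRCm38.p6 by Python 3.11.15.

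Members and lists were chosen with earlier results of these data known. From each pathway list the text names the 3 tested genes with the smallest p and the most abundant one, plus any called, of which there was none. The alternatives covered the pseudocount, filters, scaling, prior variance, library weights, a replicate block and leaving out libraries.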

Additional observations from a re-analysis of the deposited data

How the results depend on the processing

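Of 134 values of the 9 tested genes under 15 alternatives, 128 kept both their direction and their side of limma's adjusted threshold. Gclc passed with library weights (log2 fold change 0.53, limma adjusted p = 0.0438). With those weights Nfe2l2, Hmox1 and Txnrd1 turned to 0.049, -0.005 and 0, and 1 of the 9 genes, 1 pathway gene (Por) and 133 genes in all passed. Nfe2l2 also turned without water 1, ranging from -0.171 to 0.081 with 1 library left out, and without water 1 and extract 3 together (0.09). Over its alternatives the adjusted p of Gclc ran from 0.0438 to 0.456. Of the 9 genes, those higher without overlap numbered 2 after median centring, where 7.13% of all genes were. With 1 library left out they numbered 4 to 6, where 12.8% to 20.4% of all genes were (20.4% without water 1, the setting with 6). Nqo1 was lower without overlap without extract 3, as were 11.2% of all genes. The cause was not tested.

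The count of genes called over all genes, 5 with all libraries, was 2 with a pseudocount of 0.1 or quantile normalization, and it was 0 with no filter on low values or median centring (1566 and 1061 at limma's unadjusted p below 0.05). With 1 library left out the count ranged from 0 to 49, with 49 without extract 3 (all 5 among them), 1 without water 3 (not of the 5) and 0 without any other, and it was 57 without water 1 and extract 3, a choice made after seeing the data. The log2 difference of the Gclc to Gclm ratio was 0.02 with all libraries and -0.094 to 0.139 with 1 left out. The log2 ratio of the neutrophil and lymphocyte sums ranged from -0.107 without water 2 to 0.284 without water 3, and was -0.042 without extract 3.

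With the replicate block 0 genes passed limma's threshold (922 at unadjusted p below 0.05), with 0 of the 9 genes and 0 pathway genes among them. Libraries of the same number had correlations across genes of -0.017, -0.177 and 0.117, and those of different numbers -0.157 to 0.187. With each group of 3 centred on its mean, these values cannot exclude a pairing, and the labels state none. Alternatives for read counts (DESeq2, other size factors) were not run, because the table was taken to hold FPKM. Nqo1 is below the filter at a mean of 5 FPKM, and Slc7a11, tested only with no filter, had a log2 fold change of 0. Unknown depth limits what can be said of low genes such as Slc7a11 and Nqo1.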
